A study of Rattus norvegicus with 65 samples.

Results

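Meningeal fibroblast marker genes were followed in RNA-seq libraries of rat hypothalamus. The set comprised 7 gene symbols, Slc22a6, Slc6a13, Ranbp3l, Aldh1a2, Dcn, Lum and Ogn, chosen by name. They took up 8 of the 38513 rows of the count table, since Ogn had 2 rows, and all 8 rows were among the 21871 that passed the filter on low counts. The 65 libraries came from male Wistar rats, 9 to 10 weeks old at the start, whose hypothalami were taken 4 weeks after intervention following 10 h of fasting. Before the intervention the study's animals were made obese by 6 weeks on a high-fat diet. Animals underwent Roux-en-Y gastric bypass (RYGB, n = 14) or a sham operation (n = 11). Body-weight-matched (BWM) animals (n = 7) were held by food restriction to a weight course similar to that of RYGB-treated animals. The study lists this group as sham with weight matching, and reports that its animals were heavier than RYGB-treated ones at the end. Others were given liraglutide at 0.4 mg/kg/day (a stable analogue of the gut hormone GLP-1, n = 5), the gut hormone PYY3-36 at 0.1 mg/kg/day by minipump (n = 4), both (n = 10) or saline (n = 8). Apart from BWM, the treated and control groups could choose freely between high- and low-fat diet after the intervention. A further 6 libraries were labelled lean. Their diet was not given in the labels, and the study's text names a group held on low-fat diet that the labels do not tie to them. The experiment was run in 2 periods, batch A with 37 libraries and batch B with 28, which are kept apart here. In batch A there were 11 RYGB, 5 sham, 7 BWM, 6 lean, 3 saline and 5 PYY3-36 + liraglutide libraries. Batch B held 3 RYGB, 6 sham, 5 saline, 5 liraglutide, 4 PYY3-36 and 5 PYY3-36 + liraglutide libraries.

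Meningeal fibroblasts form the soft membranes around the brain and follow its larger vessels inwards. They make collagen and the small proteoglycans that bind it, carry transporters for organic anions and amino acids, and are a main source of retinoic acid in the brain. The hypothalamus lies at the base of the brain under these membranes, so a dissected piece can hold brain tissue and membrane together. In bulk RNA, fewer cells of a type and less RNA per cell cannot be told apart.

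The genes fall into 3 kinds. Slc22a6 (chr1:224824809-224833284, plus strand, build Rnor_6.0) encodes a transporter of organic anions, and Slc6a13 (chr4:153874942-153912185, plus) encodes a transporter of GABA and taurine. Aldh1a2 (chr8:77640234-77719488, plus) encodes the dehydrogenase that makes retinoic acid from retinal, and Ranbp3l (chr2:58221773-58458072, plus) encodes a Ran-binding protein of nuclear export. Dcn (decorin, chr7:38742250-38782282, plus), Lum (lumican, chr7:38820058-38826862, plus) and Ogn (osteoglycin) encode small leucine-rich proteoglycans of the matrix. Dcn and Lum are neighbours on the same strand. The 2 rows of Ogn, at chr17:14607442-14628274 and chr17:15447716-15468793 on the minus strand, held equal counts in 61 of 65 libraries and never differed by more than 1 count. Reads shared by the copies had been divided between them, so that Ogn is given below for 1 row, and its split is uncertain.

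The bases before the start sites are shown for 3 of the 4 genes with a RefSeq promoter sequence of build GRCr8, another build than that of the counts. A link between these sequences and the levels of the genes was not tested. Each window holds the 250 bases upstream, 5′ to 3′ on the gene's strand, with matches to the E-box CANNTG or the TATA box TATAAA in capitals.
Aldh1a2 (chr8:80758391-80758640, plus): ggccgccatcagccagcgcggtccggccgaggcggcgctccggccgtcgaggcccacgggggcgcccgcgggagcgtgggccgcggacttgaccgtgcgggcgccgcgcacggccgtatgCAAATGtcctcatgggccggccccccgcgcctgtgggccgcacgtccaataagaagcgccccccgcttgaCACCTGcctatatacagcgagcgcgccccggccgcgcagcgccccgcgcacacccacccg
Lum (chr7:34245456-34245705, plus): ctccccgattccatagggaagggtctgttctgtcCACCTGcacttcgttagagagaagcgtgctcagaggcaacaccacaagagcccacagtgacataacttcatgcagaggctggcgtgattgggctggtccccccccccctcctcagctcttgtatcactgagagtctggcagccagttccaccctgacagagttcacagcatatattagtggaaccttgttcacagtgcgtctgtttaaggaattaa
Ogn (chr17:15258996-15259245, minus): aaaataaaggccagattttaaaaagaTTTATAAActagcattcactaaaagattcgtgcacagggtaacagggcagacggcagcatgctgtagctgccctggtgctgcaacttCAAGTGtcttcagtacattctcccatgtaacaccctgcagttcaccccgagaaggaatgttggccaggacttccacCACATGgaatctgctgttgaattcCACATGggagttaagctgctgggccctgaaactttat
On both strands, 5 motifs were searched. The E-box was found in these 3 windows, against 65.5% of all 33469 promoter windows. Ranbp3l had 7 windows, of which 2 held the E-box and 1 the half-site AGGTCA. The most upstream of them (chr2:59784820-59785069, plus) held neither. The TATA box was found in Ogn, as a pair of overlapping matches on opposite strands, against 12.9% of all windows. None of the windows of these 4 genes held the forkhead motif GTAAACA or the AP-1 motif TGANTCA, which were in 3.21% and 6.34% of all windows. The half-site was in 14.1% of all windows and not in those of Aldh1a2, Lum and Ogn. The window of Aldh1a2 was 77.2% G and C, compared with 52.8% for Lum, 46.0% for Ogn and a median of 51.2% over all windows.

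Counts on genes ran from 20040821 to 36539714 per library, with a median of 27379758. The labelled tissue was checked against 12 hypothalamus markers, whose summed level had a median of 1756 CPM, read counts scaled to a common library size. In 12 libraries the sum was below 20% of this median, between 47.8 and 181 CPM, while the lowest of the other 53 was at 445 CPM. These were BWM replicate 1, lean replicates 2 and 5, sham replicate 2 and saline replicate 3 of batch A. In batch B they were PYY3-36 replicate 2, saline replicate 4, liraglutide replicates 3 and 4, PYY3-36 + liraglutide replicate 8 and sham replicates 6 and 10. Genes of the anterior pituitary summed to 76832 CPM in BWM replicate 5. The comparisons were repeated without the 12 libraries, a choice made after seeing the data. The values without them are given where a count, a direction or the number of small p-values changed.

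Across all libraries the markers varied over a wide range. Slc22a6 ran from 0.311 CPM in sham replicate 10 of batch B to 129 CPM in BWM replicate 7, with a median of 5.49 CPM. This was a 414-fold range. Slc6a13 had a lowest, median and highest value of 2.84, 17.3 and 283 CPM, and its highest library was RYGB replicate 3. For Ranbp3l the values were 1.77, 12.9 and 152 CPM, and for Aldh1a2 they were 2.10, 16.5 and 200 CPM. The proteoglycans Dcn and Lum had a narrower range than the other markers. Dcn ran from 4.84 over 24.4 to 171 CPM, Lum from 0.912 over 7.83 to 46.1 CPM and Ogn from 1.62 over 15.0 to 169 CPM. BWM replicate 7 was the highest library for 6 of the 7 genes. The fold between the highest and the lowest library was smallest for Dcn, at 35.4.

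Most of this spread was between animals treated alike. Within the 12 group-and-batch combinations, the SD of log2(CPM + 1) was 1.45 for Slc22a6, 1.37 for Aldh1a2, 1.32 for Ogn, 1.27 for Ranbp3l, 1.25 for Slc6a13, 1.02 for Dcn and 0.901 for Lum. The median over all genes tested was 0.264, and between 97.9% and 99.8% of genes had a lower SD than these. The biological coefficient of variation estimated by edgeR was 1.13 for Slc22a6 and 0.692 for Lum, the ends of the set's range, against a median of 0.255. The part of the sum of squares that lay within the combinations was 52.5% for Slc22a6 and 71.0% for Lum, against a median of 70.1% over all genes. All markers but Lum lay below that median, so group and batch held a larger part of their spread than in the median gene. Without the 12 libraries low in hypothalamus markers the median SD of the members was 1.2, compared with 1.27 with them.

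**Figure D1:**
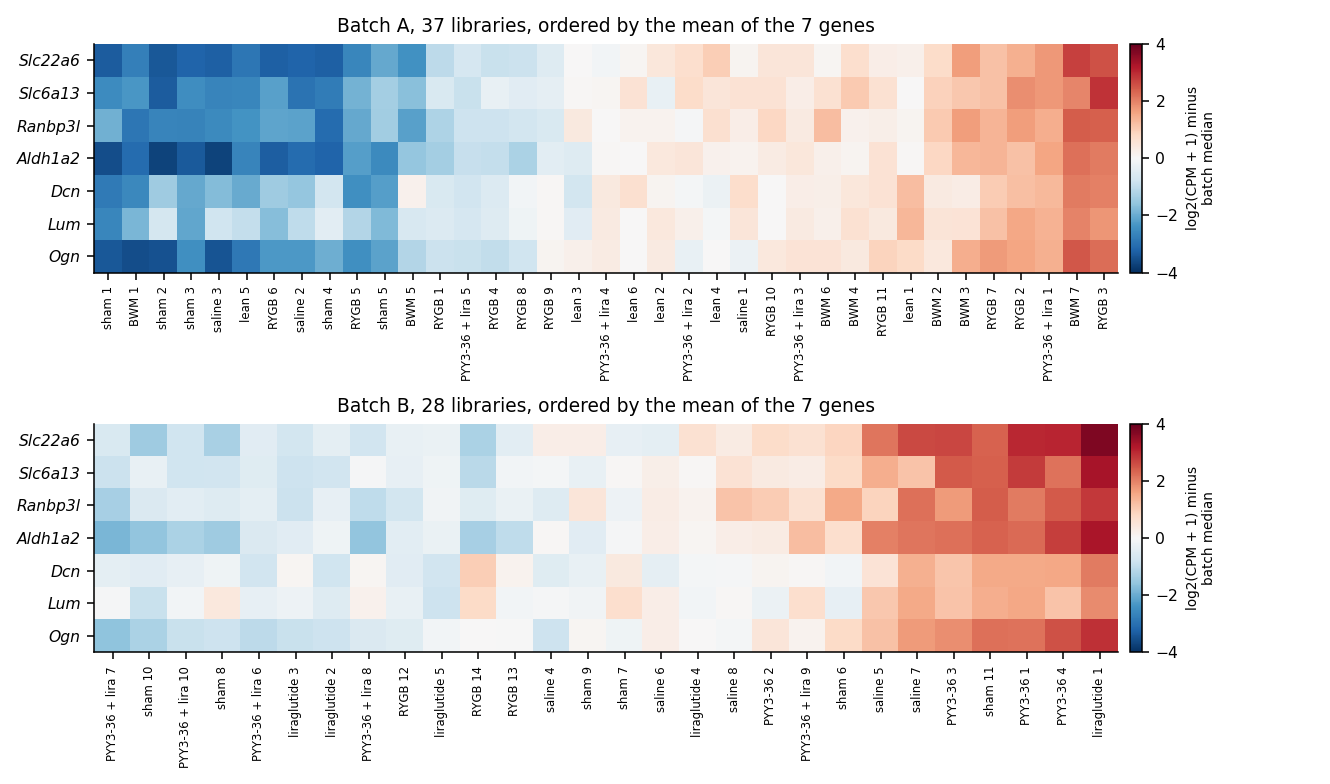
The heat map shows log2(CPM + 1) of each marker less its median in the batch (colour, from -4 to 4), with libraries in columns ordered by the mean over the 7 genes, batch A above and batch B below. Many columns hold 1 colour: 11 of 37 libraries of batch A and 8 of 28 of batch B had all 7 genes above the batch median, 15 and 7 had none, and 11 and 13 were mixed.

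Libraries tended to be high or low for the whole set. In batch A, 11 of 37 libraries had all 7 genes above the batch median, 15 had none and 11 were mixed. The corresponding numbers in batch B were 8, 7 and 13 of 28. All 5 sham libraries of batch A belonged to those with none. So did 5 of the 11 RYGB libraries, while 4 RYGB libraries had all 7. Of these 5, only replicates 5 and 6 lay in the range of sham. Their mean log2(CPM + 1) over the 7 genes was 2.69 and 2.49, against 1.94 to 2.89 in sham of batch A. Replicates 1, 4 and 8 lay above every sham library of the batch, at 3.93, 4.10 and 4.19. In batch B the libraries with all 7 genes above the median included 3 of 4 PYY3-36 libraries and no RYGB library.

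Levels of different genes were compared per kilobase of exon, with both Ogn rows summed. In this scale Dcn was the most abundant, with a median of 13.3 CPM per kb, followed by Ogn (9.74), Aldh1a2 (7.36), Ranbp3l (5.24), Slc6a13 (5.05), Lum (4.53) and Slc22a6 (2.44). Neighbours in this order were not well separated. Dcn was above Ogn in 44 of 65 libraries, Ogn above Aldh1a2 in 51, Aldh1a2 above Ranbp3l in 49, Slc6a13 above Lum in 42 and Lum above Slc22a6 in 40. Ranbp3l was above Slc6a13 in 29 of 65 libraries only.

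In RYGB- vs. sham-treated animals of batch A, all 7 markers were higher after RYGB, and 5 of them passed the threshold. Slc22a6 was at 0.975, 0.892, 1.15, 1.06 and 3.71 CPM in sham replicates 1 to 5. In the 11 RYGB libraries its lowest, median and highest values were 1.04, 12.8 and 114 CPM. Thus 9 of 11 RYGB libraries lay above the highest sham library, and the groups overlapped. Aldh1a2 was at 2.74, 2.35, 3.22, 3.75 and 6.43 CPM in sham and at 3.41, 31.3 and 181 CPM (lowest, median and highest) in RYGB, where 10 of 11 libraries exceeded every sham library. Slc6a13 was at 5.63, 2.84, 5.84, 4.48 and 14 CPM in sham and at 7.46, 30.2 and 283 CPM in RYGB. Ranbp3l was at 6.57, 3.60, 3.53, 2.44 and 10.1 CPM in sham and at 5.63, 17.8 and 152 CPM in RYGB. Both had 9 of 11 RYGB libraries above the highest sham library.

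The proteoglycans showed the same order of groups, with more overlap for Lum. Ogn was at 1.89, 1.72, 4.62, 6.85 and 5.96 CPM in sham replicates 1 to 5 and at 4.58, 32.2 and 144 CPM in RYGB. Dcn was at 4.84, 14.3, 8.88, 23.7 and 7.92 CPM in sham and at 6.47, 40.2 and 167 CPM in RYGB. Lum was at 0.912, 6.18, 1.82, 7.83 and 2.47 CPM in sham and at 2.65, 10.8 and 38.7 CPM in RYGB. For Ogn and Dcn 9 of 11 and for Lum 7 of 11 RYGB libraries were above the highest sham library.

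**Figure D2:**
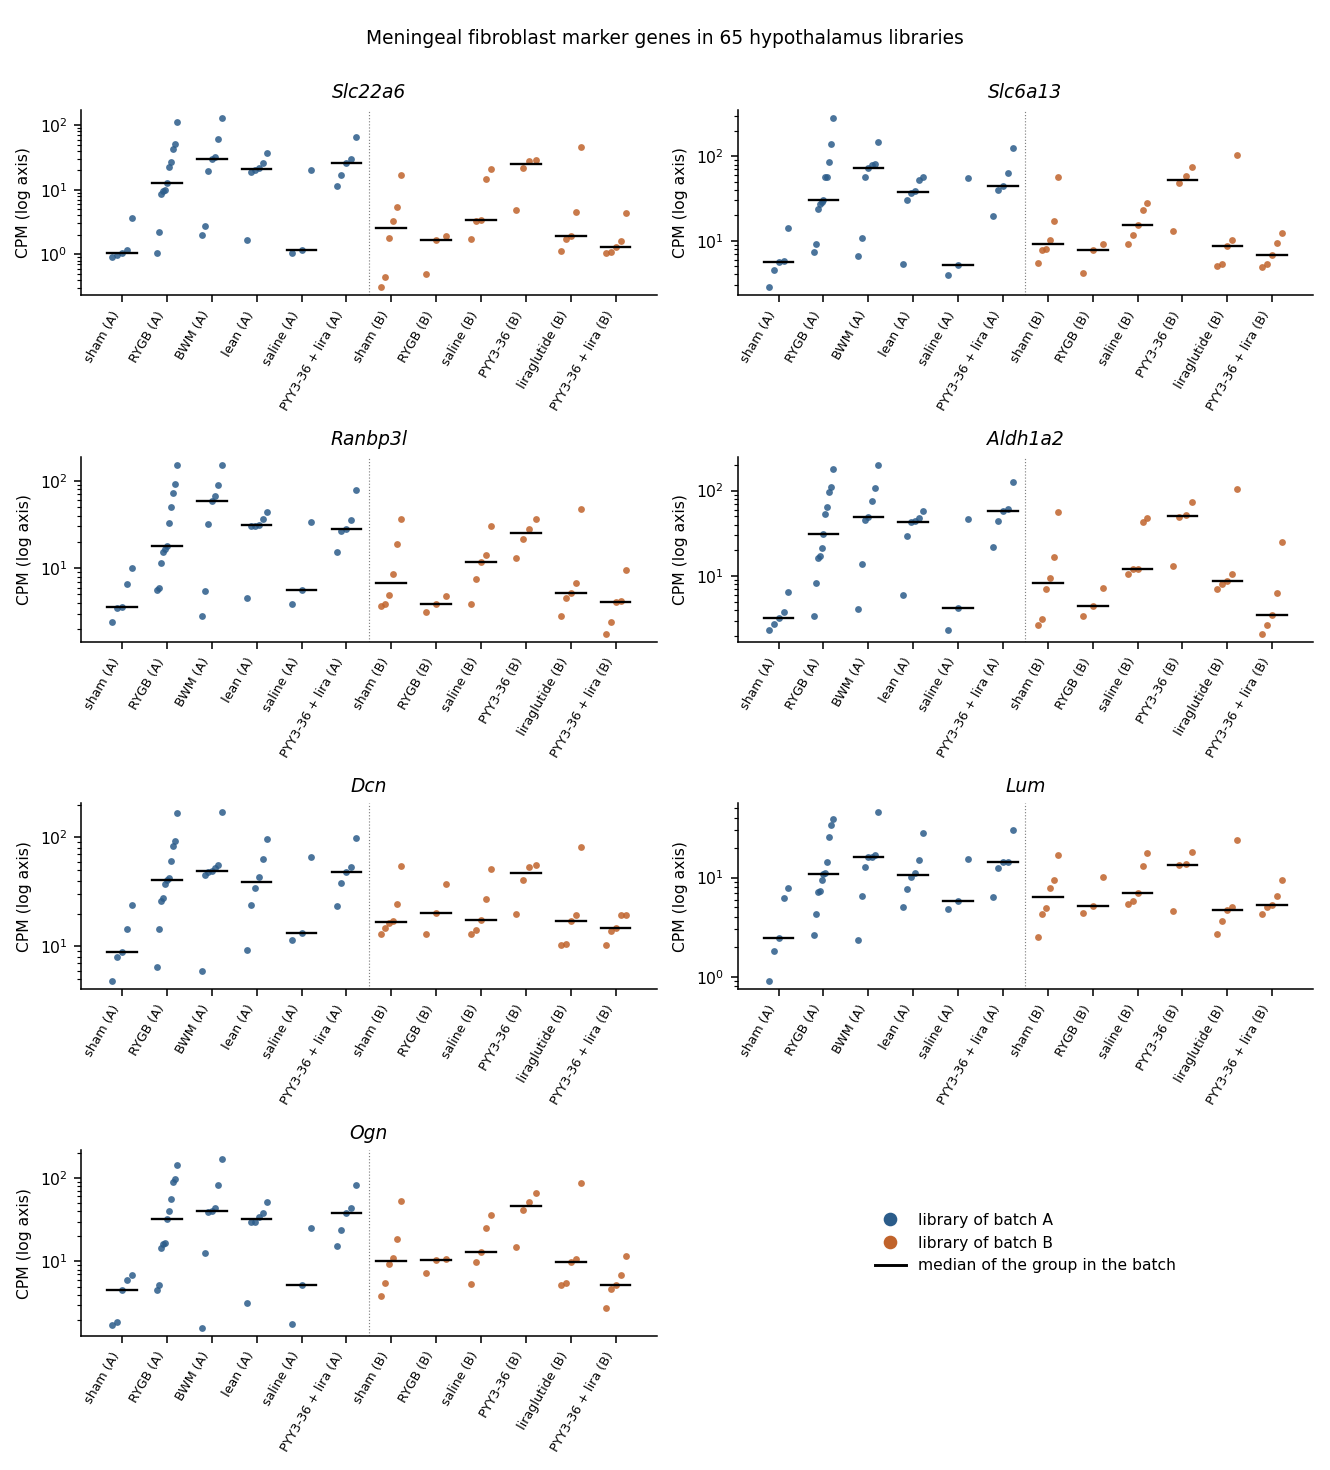
Each panel plots the CPM of 1 marker (log axis) in every library, as points by group with batch A (blue) left of the dotted line and batch B (orange) right of it; bars mark group medians. For Slc22a6 the median was 1.06 CPM in sham and 12.8 CPM in RYGB of batch A, and 2.55 CPM in sham and 1.65 CPM in RYGB of batch B.

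Within batch A the log2 fold change of RYGB vs. sham was 4.18 ± 1.07 (SE) for Slc22a6 (adjusted p = 0.0345), 3.93 ± 0.917 for Aldh1a2 (0.0269), 3.52 ± 0.901 for Ogn (0.0345), 3.41 ± 0.864 for Slc6a13 (0.0340) and 3.07 ± 0.857 for Ranbp3l (0.0478). Dcn, at 2.22 ± 0.673 (0.0612), and Lum, at 2.0 ± 0.638 (0.0725), did not pass. A gene was counted as regulated when its adjusted p was below 0.05 and its level more than doubled or fell by as much, a log2 fold change beyond 1 in either direction. The 5 of 7 markers compare with 1.35% of all genes tested in this batch. The adjusted p-values lay close to the threshold and depended on single libraries. Leaving out sham replicate 2, 3 or 5 left 0 calls, against 0.069%, 0.492% and 0.377% of all genes. Without sham replicate 2 the regulated genes fell to 15 of all tested (0.069%), from 294. Leaving out sham replicate 4, RYGB replicate 2 or RYGB replicate 3 left 1 call, against 0.823%, 0.612% and 0.566% of all genes. Leaving out RYGB replicate 7 left 2, against 0.63%. With the libraries low in hypothalamus markers left out, which in these groups was sham replicate 2, the count was 0, with adjusted p from 0.0505 for Aldh1a2 to 0.103 for Lum and 0.226% of all genes regulated. The fold changes hardly moved, with a median of 3.22 compared with 3.41.

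In batch B no marker passed the threshold after RYGB, and the groups overlapped for all 7. Of 21871 genes, 1650 had every RYGB library of this batch above all its sham libraries, and 1804 had every one below. Slc22a6 was at 1.92, 1.65 and 0.489 CPM in RYGB replicates 12 to 14, and at 0.311, 2.55 and 17.1 CPM (lowest, median and highest) in 6 sham libraries. Aldh1a2 was at 7.13, 4.42 and 3.38 CPM in RYGB and at 2.64, 8.30 and 55.5 CPM in sham. No RYGB library exceeded the sham median for either gene. Slc6a13 was at 7.72, 9.07 and 4.17 CPM in RYGB and at 5.43, 9.07 and 56.2 CPM in sham, and Ranbp3l at 3.14, 4.80 and 3.91 CPM in RYGB and at 3.68, 6.77 and 36.3 CPM in sham. For Dcn the values were 13.1, 20.4 and 37.1 CPM in RYGB and 13.1, 16.7 and 54.7 CPM in sham, and Ogn was at 7.25 to 10.6 CPM in RYGB and at 3.83, 10.2 and 52.5 CPM in sham. In both, 2 of 3 RYGB libraries were above the sham median. Lum was at 4.35, 5.14 and 10.2 CPM in RYGB and at 2.54, 6.41 and 16.96 CPM in sham. Within batch B the log2 fold change was negative for 6 of 7 markers, from -1.80 ± 1.23 for Slc22a6 to -0.21 ± 0.613 for Lum, and 0.02 ± 0.585 for Dcn. None of the 7 had an unadjusted p under 0.05, against 26.4% of all genes, and 2.94% of all genes were regulated in this batch. The highest sham value of each marker came from sham replicate 11. Without it the log2 fold changes were -0.99 (Ranbp3l), -0.72 (Slc22a6), -0.62 (Aldh1a2), -0.45 (Slc6a13), -0.01 (Ogn), 0.19 (Lum) and 0.48 (Dcn), so that Lum changed sign and Ogn was near 0. Without the libraries low in hypothalamus markers all 7 were negative, from -2.07 to -0.23, and none was regulated.

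The estimates for RYGB thus had opposite signs in the batches for 6 of 7 markers, and for 5 of 7 without sham replicate 11. The difference itself was tested. The log2 fold change in batch B minus that in batch A was -5.95 ± 1.70 for Slc22a6, -5.55 ± 1.46 for Aldh1a2 and -2.18 ± 0.948 for Dcn. All 7 markers had an unadjusted p under 0.05, against 10.4% of all genes. Their adjusted p ran from 0.143 for Aldh1a2 to 0.390 for Dcn, so 0 of 7 were regulated by edgeR (0% of all genes). By DESeq2, 5 of 7 passed the threshold, against 0.622% of all genes. Leaving out 1 RYGB, sham or batch A saline library at a time (28 fits) kept all 7 differences negative with 0 of 7 past the threshold. Without sham replicate 11 they shrank to between -4.87 and -1.72, and 5 of 7 had an unadjusted p under 0.05. Without the libraries low in hypothalamus markers the differences lay between -6.07 and -2.50, with 0 of 7 past the threshold and 7 with an unadjusted p under 0.05. The difference rests on 3 RYGB libraries in batch B.

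With both batches in 1 model and batch as a term, RYGB vs. sham gave log2 fold changes of 0.95 (Ranbp3l) to 1.53 (Slc22a6), all positive. None of the 7 markers was regulated, against 2.37% of all genes. Dcn alone had an unadjusted p under 0.05 by edgeR (1.1 ± 0.50, adjusted p = 0.143), against 30.0% of all genes. By DESeq2 6 markers had, against 31.1% of all genes, and none was regulated, against 3.01%. Without sham replicate 11 of batch B, which was high for the whole set, the count was 1, with Dcn at an adjusted p of 0.0480, against 2.76% of all genes. Without the batch term all 7 markers were regulated, against 5.43% of all genes. The fold changes were 0.78 to 1.13 without the libraries low in hypothalamus markers, none with an unadjusted p under 0.05.

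**Figure D3:**
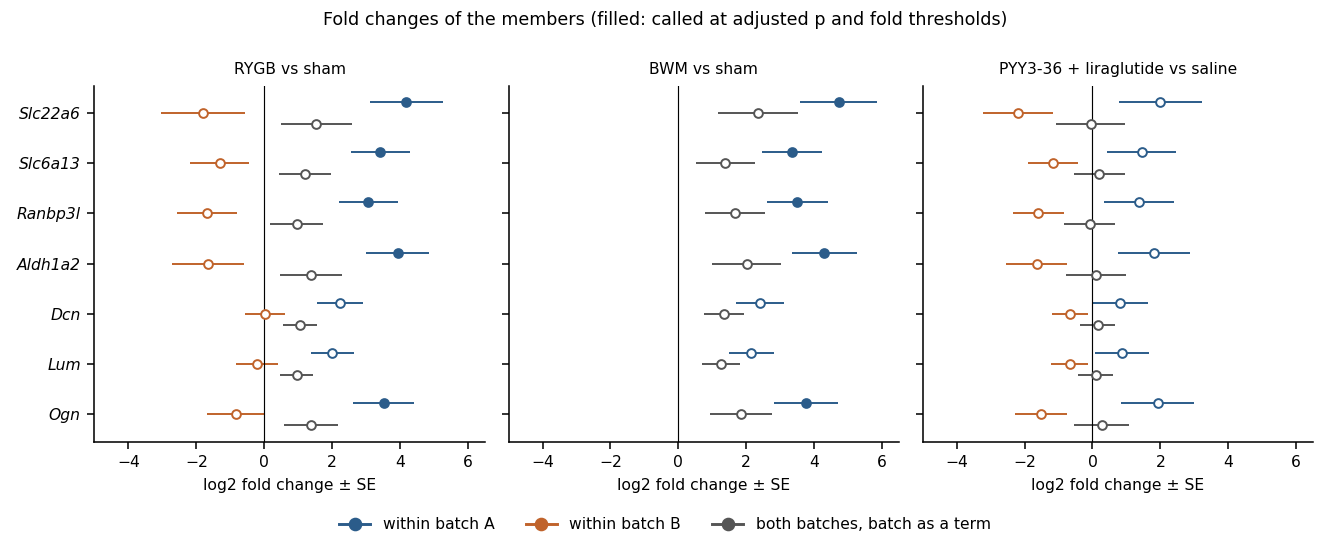
Log2 fold changes (points, bars ± SE) are plotted for each marker in RYGB vs. sham, BWM vs. sham and PYY3-36 + liraglutide vs. saline, within batch A (blue), within batch B (orange) and in the model of both batches (grey); filled points passed the threshold. In RYGB vs. sham the batch A estimates lie between 2.0 and 4.18 and those of batch B between -1.80 and 0.02.

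BWM animals, which were all of batch A, had the highest group median of that batch for 6 of the 7 markers, all but Aldh1a2. Slc22a6 had a lowest, median and highest value of 1.98, 30.2 and 129 CPM in BWM, Ranbp3l of 2.85, 58.5 and 152 CPM, and Slc6a13 of 6.58, 72.0 and 147 CPM. Aldh1a2 ran from 4.12 over 48.5 to 200 CPM and Ogn from 1.62 over 39.8 to 169 CPM. In each case 5 or 6 of 7 BWM libraries were above the highest sham library. BWM replicate 1 was the lowest and replicate 7 the highest for all 7 markers. Within batch A, log2 fold changes of BWM vs. sham were 4.72 ± 1.12 for Slc22a6 (adjusted p = 0.0378), 4.30 ± 0.958 for Aldh1a2 (0.0325), 3.77 ± 0.938 for Ogn (0.0384), 3.51 ± 0.904 for Ranbp3l (0.0415) and 3.33 ± 0.886 for Slc6a13 (0.0467). These 5 of 7 compare with 1.25% of all genes. Dcn (2.39 ± 0.707, adjusted p = 0.0636) and Lum (2.15 ± 0.672, 0.0791) did not pass.

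These calls rested on single libraries as well. In BWM vs. sham, 0 calls were left when BWM replicate 3 or 7 was dropped, and 0% of all genes were regulated. Without sham replicate 1, 2, 3 or 4 the count was 0 too, against 0.295%, 0%, 0.0874% and 0.28% of all genes. It was 2 without sham replicate 5, against 0.34%. Without BWM replicate 1 all 7 were regulated, against 4.43%. The count stayed at 5 without BWM replicate 5, the library with pituitary genes (1.21%). Without the libraries low in hypothalamus markers (BWM replicate 1 and sham replicate 2 here) 4 markers were regulated, against 1.31% of all genes. Slc6a13 was lost at an adjusted p of 0.0510. In the model of both batches 0 of 7 were regulated, with log2 fold changes of 1.26 (Lum) to 2.34 (Slc22a6) and adjusted p of 0.333 to 0.534, against 0.274% of all genes. Of the 7, 4 had an unadjusted p under 0.05 by edgeR and 6 by DESeq2, against 12.3% and 13.5% of all genes. The number by edgeR was 1 without the libraries low in hypothalamus markers. DESeq2 called none of the 7, against 0.796% of all genes. BWM had no batch B library, so the batch term of this model came from groups present in both batches. Between batches these groups moved in opposite directions, as given below. With BWM and sham alone in the fit the median log2 fold change was 3.48. There 7 markers had an unadjusted p under 0.05 by edgeR, against 14.1% of all genes. None was regulated (0% of all genes).

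RYGB and BWM were not told apart. In the model of both batches all 7 markers were lower in RYGB, by between 0.18 (Slc6a13) and 0.81 (Slc22a6) on the log2 scale. None of the 7 was regulated by edgeR or DESeq2, against 0.274% and 0.210% of all genes. None had an unadjusted p under 0.05 by either, against 12.6% and 12.8%. Within batch A the range was -0.53 to 0.08. There 0 were regulated, against 0.0551% of all genes, and 0 had an unadjusted p under 0.05, against 6.94%. Without the libraries low in hypothalamus markers this range was -0.75 to -0.12, so all 7 were lower in RYGB. Again 0 were regulated, against 0.108% of all genes. The standard errors of up to 0.788 leave room for a difference in either direction.

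In lean animals, all of batch A, medians lay between those of sham and BWM. Slc22a6 ran from 1.65 over 20.8 to 37.7 CPM, Aldh1a2 from 5.97 over 43.1 to 57.0 CPM and Dcn from 9.27 over 38.7 to 95.6 CPM. Lean replicate 5 was the lowest for all 7 markers. For Slc22a6, 5 of 6 lean libraries were above every sham library of the batch. Within batch A the log2 fold changes of lean vs. sham were 1.74 (Lum) to 3.75 (Slc22a6). All 7 had an unadjusted p under 0.05, against 13.1% of all genes. Their adjusted p was 0.173 to 0.294 and 0 of 7 were regulated, as was 0% of all genes. In the model of both batches the fold changes were 0.57 to 1.42. By edgeR and DESeq2 0 of 7 were regulated, against 0% and 0.0137% of all genes. No marker had an unadjusted p under 0.05 by either, against 12.2% and 13.8%. The batch term of that model came from other groups here too. With lean and sham alone in the fit the median was 2.47. There 7 markers had an unadjusted p under 0.05 by edgeR, against 12.5% of all genes. None was regulated (0% of all genes).

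The hormone treatments gave no call for any marker. PYY3-36 replicates 1 to 4 had 27.8, 4.93, 21.6 and 28.4 CPM of Slc22a6, and the 5 saline libraries of batch B had 3.30, 14.7, 1.74, 21.2 and 3.45 CPM. For Slc6a13 the values were 73.9, 12.9, 58.0 and 48.1 CPM with PYY3-36, and 9.27, 28.4, 11.7, 23.1 and 15.2 CPM with saline. In both genes 3 of 4 PYY3-36 libraries exceeded all saline libraries, and the fourth, replicate 2, was low in hypothalamus markers too. The number above all saline libraries was 3 for Aldh1a2 and Ogn, 2 for Dcn and 1 for Ranbp3l and Lum. For Lum 1 PYY3-36 library lay below every saline library. The model of both batches put all 7 markers higher, by 0.52 ± 0.635 for Lum to 1.75 ± 0.858 for Slc6a13. Adjusted p was at least 0.652 and 0 of 7 were regulated, as was 0% of all genes. Slc6a13 had an unadjusted p under 0.05 by edgeR, and 1 marker had by DESeq2, against 7.54% and 7.85% of all genes. No marker had when the libraries low in hypothalamus markers were left out. Within batch B the range was 0.36 to 1.47, with 0 regulated (0% of all genes) and no unadjusted p under 0.05 (15.8% of all genes).

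With liraglutide a single library stood apart. Replicate 1 had 46.5 CPM of Slc22a6, while replicates 2 to 5 had 1.73, 1.14, 4.45 and 1.94 CPM. The same library had 104 CPM of Aldh1a2 against 6.98 to 10.7 CPM in the other 4, and 81.6 CPM of Dcn against at most 19.3 CPM. The median log2 fold change of the 7 markers vs. saline in the model of both batches was 0.53, and -1.11 without this library. Of the 7, 6 were higher with liraglutide. All 7 were when the libraries low in hypothalamus markers were left out (0.02 to 1.28). None of the 7 was regulated by edgeR or DESeq2, against 0% and 0.00914% of all genes. None had an unadjusted p under 0.05 by either, against 2.08% and 2.24%. Within batch B 0 of 7 were regulated, against 0.00485% of all genes, with 0 at an unadjusted p under 0.05, against 5.08%.

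PYY3-36 + liraglutide was the other treatment whose direction differed between batches. In batch A Slc22a6 was at 64.5, 30.0, 26.2, 17.1 and 11.3 CPM in replicates 1 to 5 and at 20.4, 1.15 and 1.1 CPM in saline replicates 1 to 3. In batch B its lowest, median and highest values were 1.03, 1.32 and 4.44 CPM with treatment and 1.74, 3.45 and 21.2 CPM with saline. All 5 treated libraries were above the saline median in batch A, and 1 of 5 in batch B. The log2 fold changes were 0.81 to 2.0 within batch A, with 0 regulated and 0% of all genes, and -2.19 to -0.66 within batch B, with 0 regulated and 0% of all genes. An unadjusted p under 0.05 was found for 0 markers in batch A and for 2, Slc22a6 and Ranbp3l, in batch B. The shares of all genes were 0.827% and 9.55%. This contrast in batch B minus that in batch A was -4.18 ± 1.63 for Slc22a6 and -1.46 ± 0.990 for Dcn. In this test 5 markers had an unadjusted p under 0.05, against 3.25% of all genes. Adjusted p was at or near 1 for all 7. By edgeR and DESeq2 0 were regulated, against 0% and 0.0503% of all genes. When the libraries low in hypothalamus markers were left out, 2 had an unadjusted p under 0.05 in this test, and within batch B it was 1, Ogn. In the model of both batches the fold changes were -0.09 to 0.27, 5 of 7 positive. There 0 were regulated, against 0.00457% of all genes, and none had an unadjusted p under 0.05, against 2.53%. The sign was not stable. All 7 were negative with saline and PYY3-36 + liraglutide alone in the model (-0.59 to -0.04) and without the libraries low in hypothalamus markers (-0.48 to -0.06). All 7 were positive without the batch term (0.21 to 0.93).

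The control groups were compared as well. In sham vs. saline all 7 markers were lower in the model of both batches, from -1.26 ± 0.845 for Slc22a6 to -0.42 ± 0.688 for Ogn. None was regulated by edgeR or DESeq2, against 0.00914% and 0.0823% of all genes. No marker had an unadjusted p under 0.05 by either, against 12.9% and 13.7%. Within batch A saline replicate 1 was at 20.4 CPM of Slc22a6 and the other saline libraries at 1.15 and 1.1 CPM. The fold changes there ranged from -2.29 to -1.18, with 0 regulated (0% of all genes). An unadjusted p under 0.05 was found for 1 marker, against 11.8% of all genes, or for 3 without the libraries low in hypothalamus markers. Within batch B it was -0.90 to -0.004, with 0 regulated and 0 at an unadjusted p under 0.05, against 0.00485%. Without the libraries low in hypothalamus markers it was -0.85 to 0.04, with 2 markers higher in sham and 0 regulated (0% of all genes). The difference between batches was 0.83 to 1.71, with 0 regulated and 0 at an unadjusted p under 0.05 (0.00457% of all genes).

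Between the periods, the markers were lower in batch B in groups that had been high in batch A and higher in the controls. The median of Slc22a6 was 12.8 in batch A and 1.65 CPM in batch B after RYGB, and 26.2 and 1.32 CPM with PYY3-36 + liraglutide. It was higher in batch B in sham (1.06 and 2.55 CPM) and in saline (1.15 and 3.45 CPM). For Lum the medians were 10.8 and 5.14 CPM in RYGB, and 2.47 and 6.41 CPM in sham. The batch term of the model was negative for all 7 markers, from -1.54 ± 0.858 for Slc22a6 to -0.33 ± 0.377 for Lum. None of the 7 was regulated by edgeR, against 5.0% of all genes. Of the 7, 1 had an unadjusted p under 0.05, against 47.7% of all genes, or 3 without the libraries low in hypothalamus markers. By DESeq2, 3 passed, against 5.6% of all genes. By edgeR without sham replicate 11, 3 passed (Slc22a6, Ranbp3l and Slc6a13), against 5.34%.

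The markers varied together between animals of the same group and batch. After removal of the group-and-batch means, Pearson's r over 65 libraries was between 0.768 (Ranbp3l and Lum) and 0.966 (Slc22a6 and Aldh1a2) for the 21 pairs, with a median of 0.917. Spearman's rho was 0.672 to 0.963. Each r had p = 1e-05 in a two-sided permutation test, the smallest that 100000 resamples can give, and 1e-05 after adjustment over the 21 pairs. Without the 2 libraries farthest from the median, r was 0.720 to 0.959. Within batch A it was 0.847 to 0.985 and within batch B 0.726 to 0.961. Without the libraries low in hypothalamus markers the median r was 0.903. The first principal component held 91.7% of the variance within groups.

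Within this pattern, the transporters, Ranbp3l, Aldh1a2 and Ogn were closest to each other, with r of 0.917 or more in every pair. Dcn and Lum were close to each other (r = 0.933) and less close to Slc22a6 (0.816 and 0.822) and Ranbp3l (0.782 and 0.768). The SD of the log2 ratio was 0.371 for Dcn to Lum, 0.378 for Slc22a6 to Aldh1a2 and 0.874 for Slc22a6 to Lum. The mean of the set had an r of 0.028 with the total count of a library (log scale), 0.026 with the share of its 10 highest genes and 0.581 with the TMM scaling factor.

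**Figure D4:**
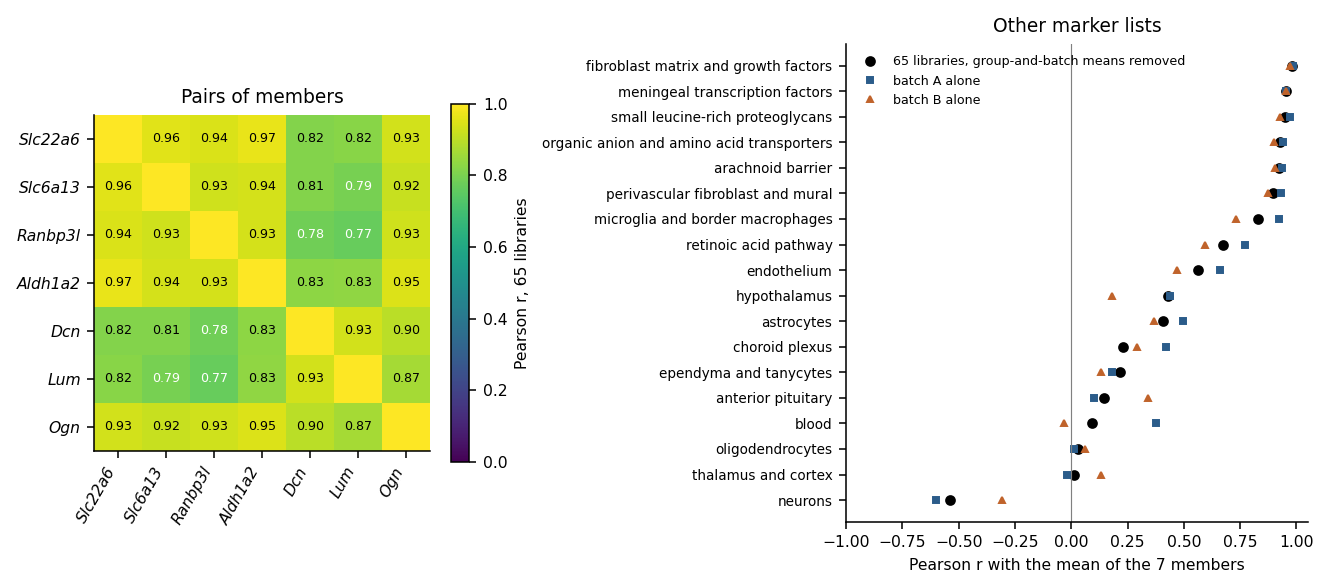
Left, Pearson's r between pairs of markers over 65 libraries with group-and-batch means removed (colour and number). Right, r between the mean of the 7 markers and the mean of 18 other marker lists over all libraries (black), batch A (blue) and batch B (orange), from 0.981 for fibroblast matrix to -0.539 for neurons.

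Of 21863 other genes compared with the mean of the markers, the closest were NEWGENE_621351 (r = 0.976), Wnt6 (0.975), Col3a1 (0.975), Col1a2 (0.975) and Col1a1 (0.969). Wnt6 encodes a secreted Wnt ligand and the collagen genes encode the chains of fibrillar collagens. An r over 0.9 was found for 88 of them and over 0.8 for 305, while the median was -0.06. Each of Slc22a6, Aldh1a2 and Ogn was closer to the mean of the other markers than all but 6 or 7 genes outside the set, and Lum than all but 143.

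The label was checked against lists of related genes, which followed the set to different degrees. With the mean of the markers, r was 0.981 for 25 fibroblast matrix and growth factor genes, 0.953 for 14 meningeal transcription factors, 0.949 for 9 other small leucine-rich proteoglycans and 0.929 for 11 organic anion and amino acid transporters. It was 0.675 for 15 genes of the retinoic acid pathway. The regulated genes of these lists are given against 1.35% of all genes in RYGB vs. sham of batch A, 1.25% in BWM vs. sham of batch A and 2.94% in RYGB vs. sham of batch B. Within batch A, 4 of the 9 proteoglycans were regulated in RYGB vs. sham: Aspn (log2 fold change 3.42), Omd (2.95), Fmod (2.97) and Bgn (2.73). None of them was regulated in batch B. Of the 25 matrix genes 11 rose in RYGB and 12 in BWM vs. sham of batch A, among them Wnt6 (5.56 in RYGB and 6.03 in BWM), Col3a1 (4.11 and 4.69) and Col1a2 (3.77 and 4.26), and 0 of 25 were regulated in RYGB vs. sham of batch B. Of the transporters 4 rose in RYGB (Slc6a20, Slc47a1, Slc22a2 and Slc6a12) and 1 in BWM (Slc6a20). Of the transcription factors 3 rose in RYGB, Foxc2 (4.19), Prrx2 (3.81) and Six2 (3.82), and 4 in BWM. In the retinoic acid list 1 of 15 rose in RYGB of batch A, Rxra, a retinoid X receptor (1.28). It rose in batch B as well (1.2), together with Aldh1a1 (1.33), another retinal dehydrogenase. Like those of the markers, the calls of batch A depended on single libraries. Leaving out 1 library at a time gave 0 to 18 matrix genes in RYGB and 0 to 18 in BWM vs. sham, and 0 to 5 and 0 to 6 proteoglycans. Without sham replicate 2 none of the 5 lists had a regulated gene in either comparison.

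The means of the arachnoid barrier, mural and macrophage lists moved with the set, with r of 0.924, 0.896 and 0.829. Single genes of these lists did so to very different degrees. Their r ran from 0.221 to 0.964 in the arachnoid list and from 0.209 to 0.912 in the mural list. In the list of microglia and border macrophages it ran from -0.029 to 0.927. In RYGB vs. sham of batch A, where 1.35% of all genes were regulated, 2 of 8 arachnoid barrier genes were regulated (Ptgds and Dpp4). The summed level of the arachnoid list was 631 to 979 CPM in sham and 768 to 16898 CPM in RYGB. Ptgds alone reached 16210 CPM over the 65 libraries. Of 10 perivascular and mural genes 3 were regulated, the smooth muscle genes Acta2 (3.99), Tagln (3.04) and Myh11 (3.12), and the list summed to 157 to 200 CPM in sham and 185 to 2154 CPM in RYGB. Of 8 genes of microglia and border macrophages 2 were regulated, the macrophage receptors Mrc1 (2.40) and Cd163 (2.58), and the list summed to 116 to 165 CPM in sham and 122 to 248 CPM in RYGB. Without sham replicate 2 none of these genes was regulated. Choroid plexus followed the set less, with r = 0.230. Of its 13 genes Kl was regulated in RYGB vs. sham of batch A (2.41). The list summed to 10.9, 78.7 and 700 CPM (lowest, median and highest) in sham and to 13.5, 54.8 and 3681 CPM in RYGB, where RYGB replicate 6 was the highest. None of the genes of these lists had a median of 0 CPM over the 65 libraries. Their part in the results was not tested.

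Lists of the brain tissue itself followed the set less closely than the arachnoid, mural and macrophage lists. With the mean of the markers, r was 0.564 for endothelium, 0.431 for the 12 hypothalamus markers, 0.407 for astrocytes, 0.218 for ependyma and tanycytes, 0.031 for oligodendrocytes, 0.014 for thalamus and cortex and -0.539 for neurons. It was 0.147 for the anterior pituitary and 0.093 for blood. The counts in RYGB vs. sham of batch A are given against 1.35% of all genes. None of the 7 neuron, 8 endothelium, 6 astrocyte, 6 oligodendrocyte, 8 ependyma, 12 hypothalamus, 9 pituitary or 4 blood genes tested was regulated. Of 8 thalamus and cortex genes 1, Prkcd, was lower (-1.98). The neuron list summed to 3595 to 7043 CPM in sham and 2186 to 8060 CPM in RYGB of batch A.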

How the data were processed

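RNA of the hypothalamus was measured in 65 libraries. The deposited values are estimated counts per gene: the authors trimmed reads with cutadapt (1.16 in the submitters' processing notes; the study's methods name later versions too), mapped them to Rnor_6.0 (STAR 2.7.2b) and counted them by strand on exons (featureCounts 1.6.4), giving reads with several places or genes as fractions. Hence 30.3% of nonzero values were not whole. They were rounded here, scaled by TMM and fitted with edgeR 4.0.16 in R 4.3.3 (filterByExpr, minimum count 10, minimum total 15, robust quasi-likelihood, terms for group and batch), with p-values adjusted by Benjamini-Hochberg over all genes tested. Standard errors are the fold change divided by the square root of F. Groups and batches came from the labels. The study's thresholds were used (adjusted p under 0.05, absolute log2 fold change over 1). Differences between batches were contrasts of a model with 1 mean for each of 12 group-and-batch combinations. Within-batch values came from fits of 1 batch alone. DESeq2 1.42.0 was an alternative. The scripts were tested on simulated data. Correlations used log2 of TMM-scaled CPM + 1, and no p-value is given for the mean over the markers. The members and lists were chosen with earlier results of these data known, so no list is independent support. All 7 markers are named; genes of other lists are named where regulated (at most 4 per list and comparison), and the 5 genes most like the set. Same-numbered libraries of different groups did not deviate together (median r = -0.0130 over 87 pairs, 0.00498 over all 876). The labels number the libraries without naming animals, so p-values measure the spread between these libraries. Promoters are RefSeq sequences (GRCr8), held for 4 of 7 markers.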

Additional observations from a re-analysis of the deposited data

Results flagged for a closer look

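Of 63 combinations of a marker with a group and batch of 4 to 10 libraries, 19 had a library far from the others, 18 of them the highest of its group. Chance gives about 1 in 20 for normally distributed values, a rate not checked on these data. CPM are skewed, and on the log2(CPM + 1) scale, added after seeing the data, 14 passed. The markers vary together, so 1 library accounts for several of them. Liraglutide replicate 1 was far above the other liraglutide libraries for all 7 markers, at 46.5 CPM of Slc22a6, 47.7 of Ranbp3l, 105 of Slc6a13, 104 of Aldh1a2, 81.6 of Dcn, 23.8 of Lum and 86.4 of Ogn. Sham replicate 11 of batch B was far above its group for 5 markers, at 17.1 CPM of Slc22a6, 56.2 of Slc6a13, 55.5 of Aldh1a2, 54.7 of Dcn and 52.5 of Ogn. Sham replicate 5 of batch A stood apart at 3.71 CPM of Slc22a6 and 14 of Slc6a13. PYY3-36 + liraglutide replicate 9 of batch B stood apart at 4.44 CPM of Slc22a6 and 24.7 of Aldh1a2. BWM replicate 7 stood apart at 171 CPM of Dcn and 46.1 of Lum, and lean replicate 5 was far below its group at 4.54 CPM of Ranbp3l.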

How the results depend on the processing

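In the model of both batches, the count of regulated markers was 0 in every comparison, and it stayed 0 with DESeq2's size factors, without the filter and with the Ogn rows summed. Without the batch term it was 7 in RYGB vs. sham (5.43% of all genes), 7 in BWM vs. sham (4.21%) and 1 in lean vs. sham (2.75%). Within batch A it was 5 in RYGB vs. sham (1.35%) and 5 in BWM vs. sham (1.25%). By DESeq2's test it was 3 in batch B vs. batch A (5.6%). For the difference between batches in RYGB vs. sham it was 5 (0.622%). Leaving out 1 library at a time gave 0 to 1 in RYGB vs. sham and 0 to 3 in batch B vs. batch A. The upper values came without sham replicate 11 (2.76% and 5.34%). Within batch A this gave 0 to 7 in RYGB vs. sham and 0 to 7 in BWM vs. sham. The share of all genes ran from 0.069% to 3.35% and from 0% to 4.43% when a compared library was dropped. Without the libraries low in hypothalamus markers the count in RYGB vs. sham within batch A was 0 (0.226%). Leaving out 1 library at a time left the count at 0 in RYGB vs. sham within batch B (1.18% to 4.21%). The same held for its difference between batches (0% to 0.0549%). Within batch B this gave -0.47 to 0.48 for Dcn and -0.68 to 0.19 for Lum, both upper values without sham replicate 11. Dcn was at -0.23 without the libraries low in hypothalamus markers. Compared with the model of both batches, signs reversed within batch B for RYGB vs. sham, to -1.65 for Aldh1a2, -0.21 for Lum, -0.82 for Ogn, -1.67 for Ranbp3l, -1.80 for Slc22a6 and -1.31 for Slc6a13. The replicate numbers did not pair the libraries; with the replicate block, 2 markers (Slc6a13 and Aldh1a2) were regulated in RYGB vs. sham, against 1.92% of all genes. There the median of the 7 fold changes was 2.51 in place of 1.2. All 7 had an unadjusted p under 0.05 with the block, against 24.8% of all genes. With the block all 7 were higher in PYY3-36 + liraglutide vs. saline (0.29 to 0.69), and the batch term turned positive for Aldh1a2 (0.32), Lum (0.30), Ogn (0.37) and Slc6a13 (0.075). The cause of these changes was not tested. RYGB in batch B (3 libraries) and saline in batch A (3) limit each within-batch comparison, BWM and lean have no batch B libraries, and PYY3-36 and liraglutide none in batch A. The alternatives on the Ogn rows, on batch differences, on single libraries within batch A and on hypothalamus markers were chosen after seeing the data.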
